A study of Homo sapiens with 17 samples.

Results

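FTH1, FTL, TFRC, IREB2 and ACO1 are the core genes by which a cell balances iron uptake against iron storage through iron-responsive elements (IREs). They were taken by symbol from a table of RNA-Seq and Ribo-Seq levels in human BJ fibroblasts, by a rule that names them and uses no measured value. Of these 5 genes, 3 had a row among the 9699 rows of the table: TFRC (ENST00000360110), IREB2 (ENST00000258886) and ACO1 (ENST00000379923). The ferritin genes FTH1 and FTL, listed as members, had no row and their levels are not analysed here, so the contrast of ferritin with TFRC could not be made. In its place TFRC was set beside other mRNAs known to carry an IRE.

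An IRE is a short RNA hairpin that is bound by the iron regulatory proteins IRP1, encoded by ACO1, and IRP2, encoded by IREB2, when iron is scarce. On a 5′ IRE, as in the mRNAs of both ferritin subunits, the bound protein blocks the start of translation. On the 3′ IREs of the mRNA of TFRC, the transferrin receptor that brings iron into the cell, it protects the mRNA from decay. With iron plentiful, IRP1 holds an iron-sulphur cluster and works as a cytosolic aconitase, and IRP2 is marked for degradation by a ubiquitin ligase that contains FBXL5.

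The cells were BJ fibroblasts immortalised with hTERT, the catalytic subunit of telomerase, and grown in serum. They were sampled while proliferating, in quiescence after serum depletion, 5 days (pre-senescence) and 14 days (senescence) after 4-OHT-tamoxifen turned on an inducible RASG12V, and after transformation by a RASG12V retrovirus in cells that also carried SV40 small T and knockdowns of p53 and p16INK4A (p53-KD, p16INK4A-KD). The 9 RNA-Seq samples and 8 Ribo-Seq samples stood in 12 columns, 1 per state, run and assay. The proliferating, quiescent and pre-senescent RNA-Seq columns of run 1, and the proliferating and quiescent Ribo-Seq columns of run 1, each stood for 2 samples, while pre-senescent Ribo-Seq and every column of run 2 stood for 1. Following the study, quiescence and pre-senescence were compared with the proliferating control of sequencing run 1, and senescence and transformed cells with the control of run 2. Values were fragments per kilobase of mRNA scaled to the number of reads (FPKM), with everything under 1 raised to 1 by the authors, and no member was at that floor. Translational efficiency (TE) is the log2 Ribo-Seq FPKM minus the log2 RNA-Seq FPKM. Since no group had more than 1 column, no standard deviation or test could be given, and a difference past 1.5-fold, in either direction, is a description of these columns. The control of run 2 against that of run 1 was the only repeat of a state and shows how far a value moved between runs. The study lists the RNA-Seq samples of run 1 as paired-end sequenced and those of run 2 as not. The RNA-Seq and TE differences between the controls therefore also hold this change of layout, whose part was not tested.

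The Ribo-Seq samples titled as senescent and as run 2 control carried each other's condition in the labels, and they are used here by title. By title, the proliferation gene MKI67 was at the floor of 1 FPKM in both assays of the senescent cells, against 44.0 FPKM (RNA-Seq) and 43.0 FPKM (Ribo-Seq) in the run 2 control, so each title matched the RNA-Seq column of the same name. Summed RNA-Seq FPKM of 4 proliferation markers was 8.7 in senescence and 113.4 to 266.3 elsewhere. All 7 fibroblast markers had a row, with a summed RNA-Seq FPKM of 4971.7 in senescence and at most 7154.4, while none of 5 markers of epithelium, leukocytes or endothelium had one. In senescence 6 of the 7 fibroblast markers were more than 1.5-fold lower in RNA-Seq, and the part of this and of the lost proliferation markers in the values of the iron genes in senescence was not tested. HRAS RNA was 1283.5 to 2415.3 FPKM in the controls, 1253.7 FPKM in quiescence, 2102 FPKM in pre-senescence and 2087.5 FPKM in senescence. It was 311.5 FPKM in the cells labelled transformed, which got RASG12V from another construct than the inducible one. Whether the controls carried the inducible construct is not stated in the sources used here. The part of the constructs in these levels was not tested. In those cells CDKN2A, the gene of p16INK4A, was at 12.6 FPKM in RNA-Seq against 6.75 in their control, and at 5.51 against 8.92 FPKM in Ribo-Seq. The row is of 1 transcript, and whether that transcript encodes p16INK4A was not checked. The higher RNA-Seq value is therefore not read for or against the knockdown label. CDKN1A, a p53 target, was at 80.3 FPKM in RNA-Seq against 171.6 in their control, and at 86.0 against 222.8 FPKM in Ribo-Seq.

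For the ferritin light chain FTL, whose level is not given, the start of the mRNA illustrates the pattern of an IRE. The windows from 250 bases before to 50 bases after 35116 RefSeq transcript starts (GRCh38.p14) were searched on the transcript strand for the IRE core, a C, 5 bases of any kind and the loop CAGTGN. Of the 11 genes considered here (the 5 members and 6 further IRE mRNAs) 10 had a window, and 2 of these held the core. Of all windows 10.1% held it, and 1.67% held it after the start. A gene can have several windows (4 for SLC11A2), so the count of genes is not comparable with these shares of windows. FTL had it from base 33 of the transcript, at chr19:48965329-48965358 on the plus strand. ALAS2, the erythroid 5-aminolevulinate synthase that starts haem synthesis, had it from base 15, at chrX:55030943-55030972 on the minus strand. The stretch of each is printed with the bulged C and the loop in capitals.
FTL: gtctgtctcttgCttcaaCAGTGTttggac
ALAS2: tcattcgttCgtcctCAGTGCagggcaaca
The windows of TFRC, IREB2, ACO1 and EPAS1, a 5′ IRE mRNA described further on, held no match. That of TFRC does not reach its 3′ end, where its IREs lie. Since a window ends 50 bases after the start, the search does not show that EPAS1 mRNA lacks the core.

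Few of the members' differences were larger than 1.5-fold, and none was at the RNA level when each state was set against the control of its run. In RNA-Seq 0 of 12 differences (3 genes in 4 comparisons) passed it, in Ribo-Seq 3 of 12 and in TE 2 of 12. Against the mean of both proliferating controls the counts were 2 in RNA-Seq, 6 in Ribo-Seq and 2 in TE. The share of all rows past 1.5-fold was not computed for that control, so these counts cannot be read against the table. Against the control of the same run, the differences past 1.5-fold were higher Ribo-Seq of TFRC and ACO1 and higher TE of TFRC in senescence, and lower Ribo-Seq and TE of IREB2 in pre-senescence.

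Read against the whole table, these counts did not set the 3 genes apart. In quiescence 0 of 3 genes passed 1.5-fold in any layer, where 19.4% of all rows passed it in RNA-Seq, 40.8% in Ribo-Seq and 25.3% in TE. In pre-senescence 0 of 3 passed in RNA-Seq (12.3% of rows), 1 of 3 in Ribo-Seq (38.6%) and 1 of 3 in TE (36.6%). In senescence 0 of 3 passed in RNA-Seq (40.8%), 2 of 3 in Ribo-Seq (49.7%) and 1 of 3 in TE (31.4%). In the cells labelled transformed 0 of 3 passed in any layer, beside 24.6% of rows in RNA-Seq, 29.1% in Ribo-Seq and 15.8% in TE. Between the controls of the 2 runs ACO1 alone passed, in RNA-Seq (26.1% of rows) and Ribo-Seq (41.2%), and 0 of 3 in TE (27.9%).

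**Figure D1:**
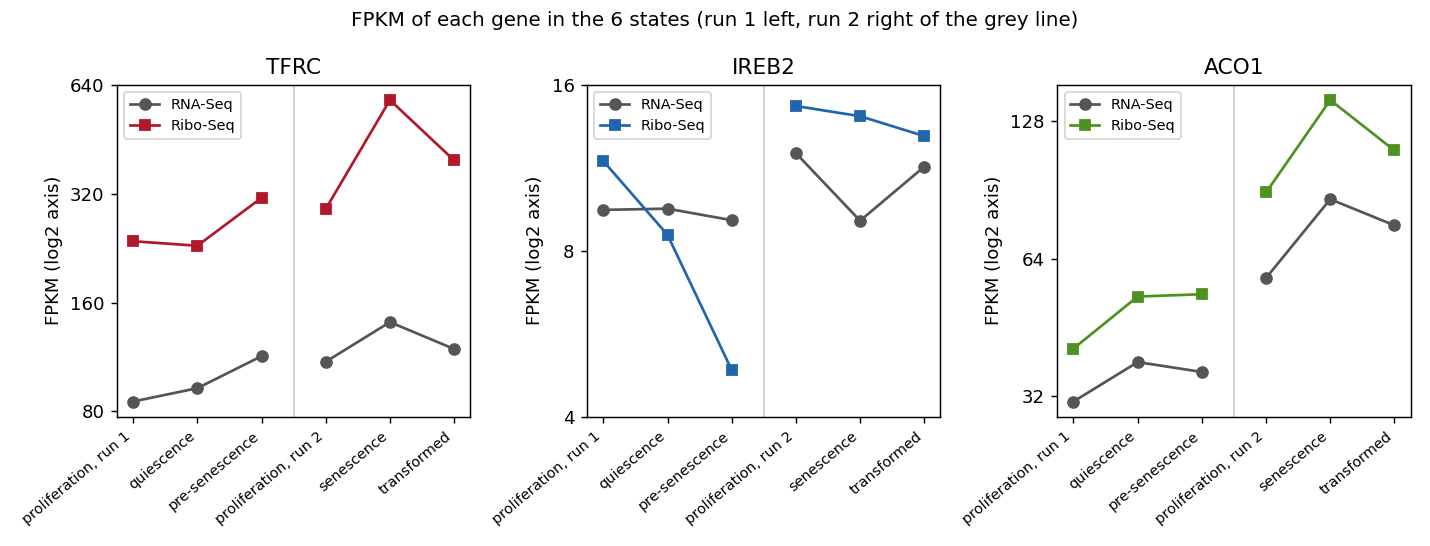
FPKM of TFRC, IREB2 and ACO1 on a log2 axis in the 6 states, with RNA-Seq as grey circles and Ribo-Seq as coloured squares, 1 point per column of the table and lines joining the columns of 1 run. TFRC Ribo-Seq is highest in senescence (583 FPKM), IREB2 Ribo-Seq drops below its RNA-Seq in quiescence and pre-senescence (4.86 FPKM in the latter), and both layers of ACO1 are higher in all of run 2 than in run 1.

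TFRC had the highest FPKM of the 3 mRNAs in both assays. Its RNA-Seq level was 85.2 FPKM in the run 1 control, 92.8 FPKM in quiescence, 113.8 FPKM in pre-senescence, 109.8 FPKM in the run 2 control, 141.4 FPKM in senescence and 119.1 FPKM in the cells labelled transformed. In each column this lay above at least 91.7% of rows. The levels spanned 1.66-fold from the lowest (run 1 control) to the highest (senescence), and no step between neighbours in that order was larger than the 1.29-fold by which the controls of the runs differed.

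TFRC Ribo-Seq spread further than its RNA. It was 237 FPKM in the run 1 control, 230.0 FPKM in quiescence, 312 FPKM in pre-senescence, 291 FPKM in the run 2 control, 583 FPKM in senescence and 397 FPKM in the cells labelled transformed. Senescence stood apart at the top, above the transformed column by more than the 1.23-fold between the controls. Pre-senescence to transformed was the other such step.

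The TE of TFRC, as the ratio of Ribo-Seq to RNA-Seq FPKM, was 2.78 and 2.65 in the controls of run 1 and run 2, 2.48 in quiescence, 2.75 in pre-senescence, 4.12 in senescence and 3.33 in the cells labelled transformed. The controls of the runs thus lay close together, while senescence and then transformed were the highest columns. In every column TFRC ranked above at least 85.6% of rows in TE, and in senescence above 94.9%.

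In senescence TFRC was 1.29-fold higher in RNA-Seq (log2 difference 0.36), 2.0-fold higher in Ribo-Seq (1.00) and 1.56-fold higher in TE (0.64) than in its control. The RNA difference matched in size the 0.37 between the controls, and the TE difference was larger in size than the −0.07 between them. Over all rows the median TE difference in senescence was −0.03, and the central 95% ran from −1.29 to 1.07, with 88.1% of rows below TFRC. Exchanging the Ribo-Seq columns with conflicting labels turned the TE difference to −1.37.

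In the other states TFRC differed less in Ribo-Seq and TE. In pre-senescence it was 0.42 higher on the log2 scale in RNA-Seq and 0.40 in Ribo-Seq, so its TE difference was −0.02. In the cells labelled transformed the log2 differences were 0.12 in RNA-Seq, 0.45 in Ribo-Seq and 0.33 in TE. In quiescence they were 0.12, −0.04 and −0.16. These TE values near 0 had the other sign when columns were scaled to the same sum, 0.24 in pre-senescence and 0.04 in quiescence, a scaling that shifts the TE difference of every row by 0.26 and 0.20. Quiescence is where the 81 cytosolic ribosomal protein mRNAs, a known group under translation control, had a median TE difference of −1.10. In senescence their median was −0.65 and TFRC had the opposite sign.

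**Figure D2:**
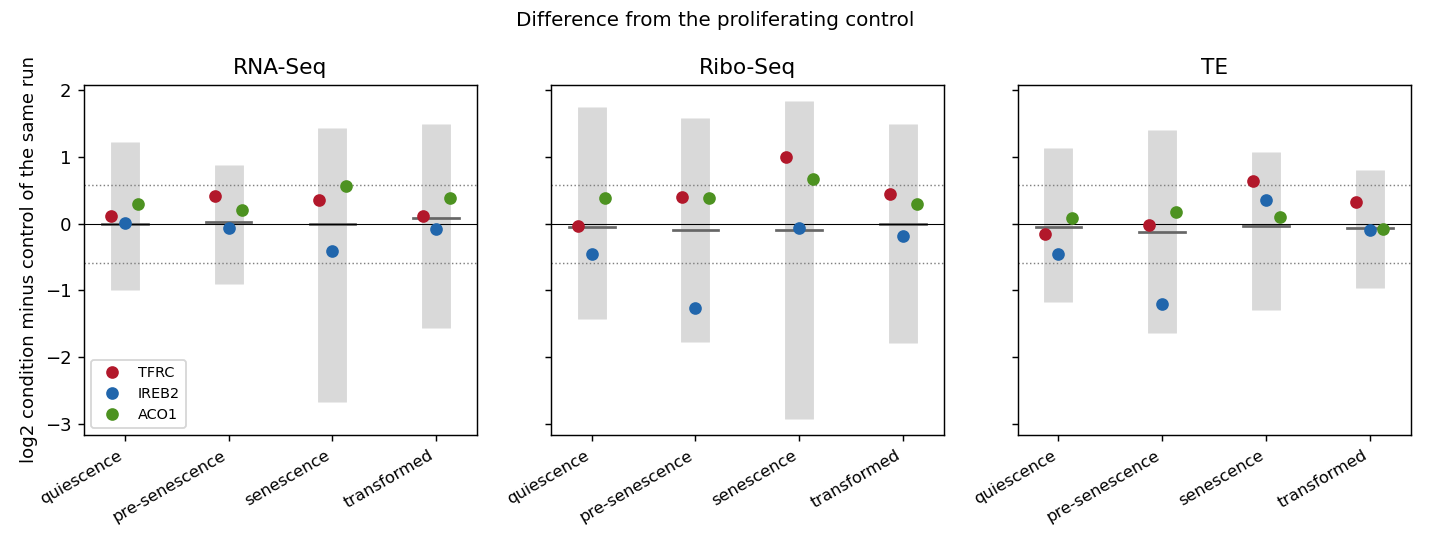
Log2 difference of each state from the proliferating control of its run for TFRC, IREB2 and ACO1 in RNA-Seq, Ribo-Seq and TE, where grey bars span the central 95% of the 9699 rows, dark ticks their median, and dotted lines 1.5-fold. All 12 RNA-Seq points lie between the dotted lines, and the points farthest out are IREB2 in pre-senescence (−1.26 in Ribo-Seq, −1.20 in TE) and TFRC in senescence (1.00 and 0.64).

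IREB2, which encodes the iron regulatory protein controlled by its own degradation, had a nearly flat RNA level. It was 9.49 FPKM in the run 1 control, 9.54 FPKM in quiescence, 9.09 FPKM in pre-senescence, 12.03 FPKM in the run 2 control, 9.07 FPKM in senescence and 11.4 FPKM in the cells labelled transformed. The 6 levels spanned 1.33-fold, little more than the 1.27-fold between the controls, and no neighbours in the order differed by more than that.

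Ribosome occupancy of IREB2 was not flat. Its Ribo-Seq level was 11.6 FPKM in the run 1 control, 8.55 FPKM in quiescence and 4.86 FPKM in pre-senescence. In run 2 it was 14.7 FPKM in the control, 14.0 FPKM in senescence and 12.9 FPKM in the cells labelled transformed. All of run 2 lay above all of run 1, and within run 1 the columns were spread from the control down to pre-senescence, the lowest of the 6.

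In pre-senescence the Ribo-Seq of IREB2 was 2.4-fold lower than in the control (log2 difference −1.26) with RNA at −0.06, and its TE was 2.29-fold lower (−1.20). Only 5.89% of rows had a lower TE difference, where the median was −0.13 and the central 95% ran from −1.64 to 1.41. The TE of IREB2 ranked above 47.7% of rows in the run 1 control and above 13% in pre-senescence. This value rests on the 1 pre-senescent Ribo-Seq sample and on levels near 5 FPKM, and its TE difference was −0.94 with columns scaled to the same sum. Quiescence had the same sign at a smaller size, −0.45 in both Ribo-Seq and TE.

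At the later time of RASG12V the sign of the IREB2 TE difference was the opposite. In senescence its log2 differences were −0.41 in RNA-Seq, −0.06 in Ribo-Seq and 0.35 in TE. In the cells labelled transformed they were −0.08, −0.18 and −0.10. Whether the TE differences at 5 and 14 days differ beyond error was not tested, and the times were measured in different runs.

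ACO1, encoding the iron regulatory protein that doubles as an aconitase, was higher in every column of run 2 than in any of run 1. Its RNA-Seq level was 31.2 FPKM in the run 1 control, 38.0 FPKM in quiescence and 36.2 FPKM in pre-senescence. In run 2 it was 58.0 FPKM in the control, 86.3 FPKM in senescence and 75.6 FPKM in the cells labelled transformed. The controls alone differed 1.86-fold, and 93.9% of rows had a lower difference between them.

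ACO1 Ribo-Seq followed its RNA. It was 40.7, 52.9 and 53.5 FPKM in the control, quiescence and pre-senescence of run 1. It was 89.3, 142.2 and 110.3 FPKM in the control, senescence and transformed columns of run 2. In neither assay did a step between neighbours in the order pass the difference between the controls, which was 2.2-fold in Ribo-Seq.

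Within its run, ACO1 was highest in senescence, 1.49-fold above the control in RNA-Seq (log2 difference 0.57) and 1.59-fold in Ribo-Seq (0.67), a gap smaller than that between the controls. The other log2 differences of ACO1 were 0.21 to 0.38 in RNA-Seq and 0.30 to 0.39 in Ribo-Seq. Against the mean of both controls the Ribo-Seq difference turned to −0.19 in quiescence and −0.17 in pre-senescence, and was 1.24 in senescence. Its TE hardly varied, with a ratio of 1.31 in the run 1 control, 1.39 in quiescence, 1.48 in pre-senescence, 1.54 in the run 2 control, 1.65 in senescence and 1.46 in the cells labelled transformed. With the Ribo-Seq columns exchanged, the Ribo-Seq difference of ACO1 in senescence became −0.67.

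Set against each other per length, ACO1 mRNA exceeded IREB2 mRNA in every column. The ratio of their RNA-Seq FPKM was 3.28 in the run 1 control, 3.98 in both quiescence and pre-senescence, 4.82 in the run 2 control, 9.51 in senescence and 6.65 in the cells labelled transformed. In Ribo-Seq the ratio was 3.49 in the run 1 control, 6.18 in quiescence, 11 in pre-senescence, 6.09 in the run 2 control, 10.1 in senescence and 8.54 in the cells labelled transformed. RNA-Seq thus had the highest ratio in senescence. The ratio also differed between the controls, at 3.28 and 4.82 in RNA-Seq and 3.49 and 6.09 in Ribo-Seq. Within run 1 the Ribo-Seq ratio was highest in pre-senescence (11, control 3.49), and within run 2 in senescence (10.1, control 6.09).

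**Figure D3:**
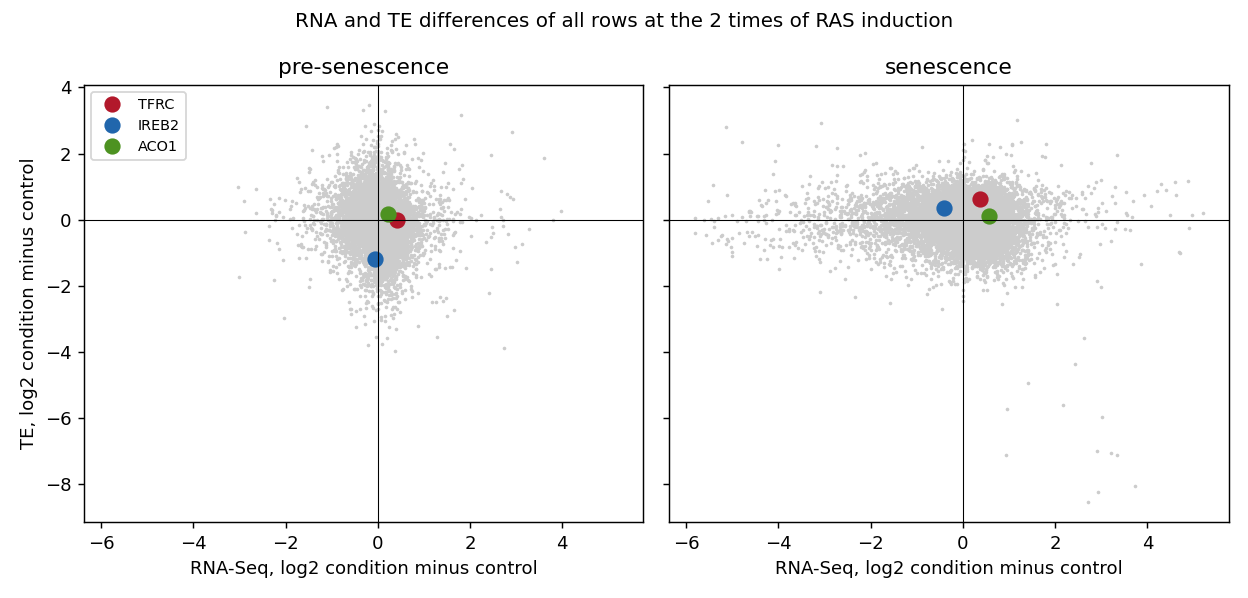
RNA-Seq difference (x axis) against TE difference (y axis), both log2 from the control of the run, for all 9699 rows in grey and TFRC, IREB2 and ACO1 in colour, in pre-senescence (left) and senescence (right). In pre-senescence IREB2 lies straight below the origin (−0.06 and −1.20), and in senescence TFRC lies above and to the right of it (0.36 and 0.64), both inside the grey cloud.

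Of the 6 further IRE mRNAs 3 had a row. The 5′ IRE mRNA was that of EPAS1, the hypoxia-inducible factor HIF-2α. The 3′ IRE mRNAs were SLC11A2, the iron transporter DMT1, and CDC42BPA, a kinase that binds CDC42. Each row stands for 1 transcript per gene, and whether the transcripts of these genes included the IRE was not checked. Past 1.5-fold in TE were 0 of the 3 in quiescence and transformed, 1 in pre-senescence (CDC42BPA, lower) and 1 in senescence (CDC42BPA, higher), where 36.6% and 31.4% of all rows passed in either direction.

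In senescence the TE differences of the mRNAs with 3′ IREs lay on 1 side. SLC11A2 had 0.50, CDC42BPA 0.59 and TFRC 0.64, while EPAS1, with its 5′ IRE, had 0.09. The Ribo-Seq level of SLC11A2 was 12.7 FPKM in the control and 29.3 FPKM in senescence, and that of CDC42BPA 9.04 and 14.0 FPKM. With 3 mRNAs against 1 in 1 column each, and the same Ribo-Seq columns that carry the conflicting labels, these values are only a description. In quiescence (−0.42 to −0.16 over the 4 mRNAs) and in pre-senescence EPAS1 lay among the others, and in pre-senescence the 3′ IRE values ran from −0.82 (CDC42BPA) to −0.02 (TFRC) with EPAS1 at −0.39 between them. In the cells labelled transformed EPAS1 (0.39) was level with CDC42BPA (0.39), with TFRC at 0.33 and SLC11A2 at −0.01.

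At the RNA level the other IRE mRNAs differed in both directions in senescence, by more than TFRC did except for CDC42BPA. EPAS1 was 118.3 FPKM in the control and 56.7 FPKM in senescence, a fold of 0.479. SLC11A2 was 1.63-fold higher in senescence and 1.68-fold higher in the cells labelled transformed. EPAS1 mRNA also had the lowest TE ratio of the 4 IRE mRNAs described, 0.169 to 0.334, against 2.48 to 4.12 for TFRC. TE mixes 2 lengths and is best compared within a gene, so this order is of the ratios only.

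**Figure D4:**
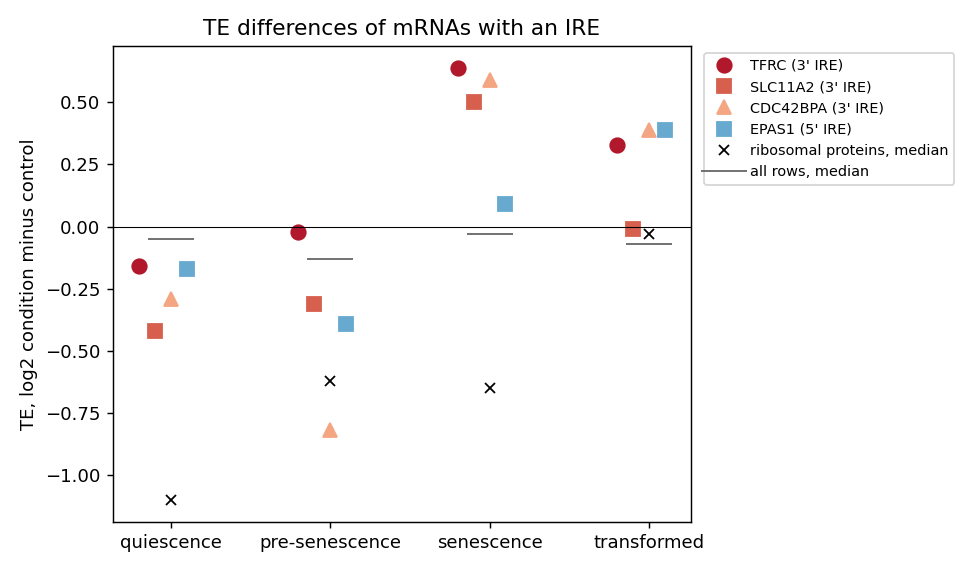
TE difference (log2, state minus control of its run) of 4 IRE mRNAs, with 3′ IRE mRNAs in red shades and the 5′ IRE mRNA EPAS1 in blue, with crosses for the median of 81 ribosomal proteins and dashes for the median of all rows. In senescence the 3 red points (0.50 to 0.64) lie above the blue point (0.09), and in the other states the blue point lies among or level with the red ones.

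Around the IRE system, 51 iron genes in 5 lists were looked up and 39 had a row. In the list of iron storage and IRP turnover (6 of 7 with a row), 0 were more than 1.5-fold higher in TE in any state, and 2 in quiescence, 2 in pre-senescence and 1 in senescence were more than 1.5-fold lower, beside 25.3%, 36.6% and 31.4% of all rows past it in either direction. FBXL5, the iron-sensing subunit that targets IRP2, had TE differences of −0.66 in quiescence and −0.74 in pre-senescence. SKP1, the adaptor of the same ligase, had −0.76 and −1.24. CUL1, listed beside them for IRP turnover, had −0.12 and 0.17. In pre-senescence FBXL5 and SKP1, but not CUL1, were low together with IREB2 (−1.20), with ribosomal proteins at −0.62 and 36.6% of all rows past 1.5-fold. FBXL5 Ribo-Seq was 9.81 FPKM in the run 1 control and 6.37 FPKM in pre-senescence, and SKP1 Ribo-Seq 580 and 290 FPKM.

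Iron uptake genes, which act beside TFRC, had a row for 4 of 11. In senescence 2 of the 4 were past 1.5-fold higher in RNA-Seq and 0 lower (median 0.41, all rows 0.00), and in the cells labelled transformed likewise 2 and 0, beside 40.8% and 24.6% of all rows past 1.5-fold in either direction. SLC39A8, a transporter of zinc and iron, was 2.97 FPKM in the run 2 control and 10.8 FPKM in senescence, 3.62-fold higher, while the run 1 control was at 4.89 FPKM. SLC39A14, which imports iron not bound to transferrin, was 32.1 FPKM in that control and 75.9 FPKM in the cells labelled transformed, 2.36-fold higher. STEAP3, the reductase that works on iron delivered by the transferrin receptor, was 1.64-fold higher in RNA-Seq in pre-senescence, and 2.73-fold lower in the run 2 control than in the run 1 control. HFE, a partner of the transferrin receptor, had a TE difference of 1.73 in pre-senescence, with 6.84 Ribo-Seq FPKM in the run 1 control, 21.3 in pre-senescence and 17.1 in the run 2 control.

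Haem genes (12 of 13 with a row) had 4 higher and 0 lower in RNA-Seq in senescence, and 1 higher and 5 lower in TE (median −0.30, all rows −0.03), where 40.8% of all rows passed in RNA-Seq and 31.4% in TE. ALAS1, the first enzyme of haem synthesis outside erythroid cells, was 12.5 FPKM in RNA-Seq in the run 2 control and 29.2 FPKM in senescence, 2.34-fold higher, but also 29.2 FPKM in the run 1 control. HMOX2, a haem oxygenase, was 26.01 FPKM in the run 2 control, 23.8 FPKM in the run 1 control and 63.4 FPKM in senescence. UROS, a haem synthesis enzyme, had a TE difference of −1.29 there, and of 1.19 between the controls of the runs. FLVCR1, a haem exporter, had one of 1.71, from a control at the floor of 1 FPKM in Ribo-Seq.

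All 14 genes of mitochondrial iron and iron-sulphur clusters, the cofactor that IRP1 takes up, had a row. In senescence 4 were higher and 0 lower in RNA-Seq (median 0.39, all rows 0.00), and 0 higher and 8 lower in TE (median −0.68, all rows −0.03), beside 40.8% and 31.4% of all rows past 1.5-fold in either direction. The cells labelled transformed, set against the same control, had 4 higher and 0 lower in RNA-Seq (median 0.44, all rows 0.08). Their TE was higher in 0 and lower in 5 (median −0.52, all rows −0.07), beside 24.6% of all rows in RNA-Seq and 15.8% in TE. Between the controls, 5 of the 14 had a higher TE in run 2 than in run 1 and 1 a lower one. The part of the run 2 control in the senescence and transformed values was not tested. ISCU, the scaffold on which clusters are built, was 2.06-fold higher in RNA-Seq in senescence, whereas BOLA3 and NUBP2, which act in cluster assembly, had TE differences of −1.09 and −1.12, and of 0.67 and −0.59 between the controls. SLC25A37, which carries iron into mitochondria, had a TE difference of 2.09 in pre-senescence, from a Ribo-Seq level of 1.65 FPKM in the run 1 control, and that of the run 2 control was 3.44 FPKM. IREB2 and TFRC, at 0.35 and 0.64, had TE differences of the opposite sign to this list's median in senescence.

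The rows most like each gene were sought over 8 values (the RNA-Seq and TE differences of the 4 comparisons) among 7262 others with a mean of at least 5 FPKM in both assays, by root mean square log2 distance. Nearest to TFRC were COPB1 (0.10), TMEM115 (0.10) and HSPA4 (0.14), against a median of 0.58 over all those rows. For IREB2 they were CSTF1 (0.13), JOSD1 (0.14) and CNOT2 (0.14), with a median of 0.65. KIFAP3 (0.08), EXOC7 (0.10) and USP32 (0.13) were nearest to ACO1, with a median of 0.54. Among the members, TFRC and ACO1 were 0.30 apart, TFRC and IREB2 0.57, and the 2 iron regulatory protein genes 0.67, which is above the median for either.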

How the data were processed

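The deposited table held FPKM values per transcript for 17 samples in 12 columns. The authors aligned reads with Bowtie to 1 transcript per gene, and their processing notes name hg19. They kept uniquely mapped reads, counted RNA-Seq over the whole transcript and Ribo-Seq over the coding sequence only, and set FPKM under 1 to 1. How 2 samples were combined in 5 of the columns is not given in the sources used here. The study lists reads per sample, but the table holds no counts and gives no depth behind a value, so no interval or floor is given. From these FPKM, log2 values, TE and differences from the control of the same run were computed with no pseudocount (Python 3.11.15, pandas 2.3.3, numpy 2.4.6, matplotlib 3.10.9), and the code was tested on simulated data. Runs were taken from the study's methods. With 1 column per state no test was possible, so counts past 1.5-fold stand beside the share of all rows. Since the Ribo-Seq value covers coding sequence only, TE mixes 2 lengths, and it is best compared within a gene. Reads without a unique place were lost.

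The members and gene lists were chosen with earlier results of these data known, although the rule for the members uses symbols only. Named genes were the members, at most 4 per list past 1.5-fold in RNA-Seq or TE with the largest differences, and the 3 nearest rows per member. Alternatives were other scalings, controls, pseudocount, fold, a filter on low FPKM and the exchange of the Ribo-Seq columns with conflicting labels. Sequences came from RefSeq windows (GRCh38.p14), another build than that of the table, and serve as sequences only. Some results are not reported here.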

Additional observations from a re-analysis of the deposited data

Results flagged for a closer look

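TE of 2 genes had opposite signs at the early and the late time of RASG12V. For TFRC the TE difference from control was −0.02 at 5 days and 0.64 at 14 days, 0.66 apart on the log2 scale, although the early value is close to 0 and took the other sign under other scalings (0.11 and 0.24) and with the mean of both controls (0.02). For IREB2 it was −1.20 at 5 days and 0.35 at 14 days, 1.54 apart. Neither difference was tested, since each state had 1 column per assay, and the times belong to different runs with different controls.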

How the results depend on the processing

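Of 102 alternative values, 94 stayed within a set limit, while 6 moved further and 2 past 1.5-fold reversed. The exchange of the Ribo-Seq columns could not change quiescence or pre-senescence, which use neither column. Those unchanged values are counted among the 94. The limit was a shift of 0.44 in RNA-Seq, 0.59 in Ribo-Seq and 0.44 in TE or, for counts, 1.5 times. Each shift is the standard deviation over rows of the difference between the controls of the runs, divided by the square root of 2. Undivided, that standard deviation was 0.62 in RNA-Seq, 0.84 in Ribo-Seq and 0.63 in TE. A sign change occurred in 11 of the alternative differences, 7 of them among the 94, for TFRC in RNA-Seq or TE and ACO1 in Ribo-Seq, all in quiescence or pre-senescence with reported sizes of at most 0.39. Exchanging the Ribo-Seq columns with conflicting labels reversed the senescence differences of TFRC in TE (−1.37) and of ACO1 in Ribo-Seq (−0.67), took those of the transformed cells to −0.67 and −0.37, and made 5 TE values of members pass 1.5-fold in place of 2. With the mean of both proliferating controls in place of the control of the same run, 2 RNA-Seq and 6 Ribo-Seq values of members passed 1.5-fold, in place of 0 and 3, and at 2-fold only 1 TE value did. The shares of all rows were not computed for the exchange, the mean control or 2-fold, so these counts of members have no share beside them. Leaving the exchange aside, the TE difference of TFRC in senescence was 0.60 to 0.82, and that of IREB2 in pre-senescence −0.94 to −1.20. With a mean of at least 5 FPKM in each assay, 34 of the 39 iron genes remained. The TE difference of ferritin was not run, as FTH1 and FTL had no row. No paired analysis was possible because the table has 1 column per state and run, and for the same reason no replicate could be left out. Without counts per gene, the precision of low values is not known, such as IREB2 near 5 FPKM in Ribo-Seq.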
